A study of Mus musculus with 6 samples.

Results

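The 10 genes described here encode heat shock chaperones of the cytosol and of mitochondria: Hspa1a, Hspa1b, Hspa8, Hsph1, Dnajb1, Dnaja1, Hspb1, Hsp90aa1, Hspd1 and Hspe1. They were chosen by symbol, and all 10 are listed in the count tables, which list 42396 genes. Of the 10, 8 passed the filter on low counts and were among the 17439 genes tested, and the other two, Hspa1a and Hspa1b, had 0 counts in every library and were described from FPKM, the deposited level per kilobase of transcript. The cells were primary cultures of ventral midbrain from wild-type mouse embryos at embryonic day 14, plated at 150000 cells per well and infected that day with lentivirus at a multiplicity of 5. The control group received pll3.7-Scr2, a scramble hairpin, and the knockdown group received pll3.7-shRmstI, a hairpin against circRmst, a circular RNA of the gene Rmst. Total RNA depleted of ribosomal RNA was sequenced at 3 days in vitro in 3 control and 3 knockdown libraries. Both groups were infected, so a chaperone response to the virus or to plating that both share cannot show as a difference between them, and each group rests on 1 hairpin construct. The comparison asks which RNAs change when circRmst is lowered.

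Chaperones of the Hsp70 family bind unfolded stretches of protein and release them in a cycle driven by ATP. J proteins such as those of Dnaja1 and Dnajb1 deliver clients and start that cycle, and the Hsp110 protein of Hsph1 resets it by exchanging the nucleotide. Hsp90 takes over clients such as kinases and steroid receptors at a later step of folding, small heat shock proteins hold unfolded proteins without ATP, and Hspd1 and Hspe1 encode the barrel and the lid of the mitochondrial chaperonin. Hspa8 is the constitutive Hsp70 gene and is abundant in neurons, whereas Hspa1a and Hspa1b are the stress-induced ones. The transcription factor HSF1 drives the inducible genes through heat shock elements, which are GAA units in alternating orientation.

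The stretches before the start sites of these genes were searched for such units, as a description of sequence apart from the measurements. RefSeq promoter sequences (GRCm38.p6, 250 bases before to 50 after an annotated start) matched 8 of the 10 symbols, all but Hspa8 and Hsp90aa1. A pair of units was searched as GAANNTTC or TTCNNGAA, each of which reads the same on both strands. A run of 3 units was searched as GAANNTTCNNGAA or TTCNNGAANNTTC, each the reverse complement of the other, and a run contains overlapping pairs. At least 1 pair was found for 7 of the 8 genes, against 17% of 27025 genes with a promoter sequence. A run was found for 3 of the 8, Hsph1, Hspd1 and Hspe1, against 0.662% of genes. Dnajb1 had neither in these windows, which says only that these letters are not there. Such matches describe the sequence and do not show binding. The following stretches of 60 or 30 bases carry matches in capitals, 5′ to 3′ on the strand of the gene. Each lies before the start of the promoter entry it comes from, but some genes have other annotated starts. The Hsph1 stretch lies inside that gene's annotated span, the Hspe1 stretch is in an untranslated first exon of a longer Hspd1 transcript in GENCODE M21, and the Dnaja1 stretch overlaps exons of a further Dnaja1 transcript and of Gm6297. The run of Hsph1 lies outside its stretch.
Hspa1a (chr17:34972227-34972286, minus strand): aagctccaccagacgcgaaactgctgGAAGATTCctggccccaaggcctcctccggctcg
Hspa1b (chr17:34959309-34959368, minus strand): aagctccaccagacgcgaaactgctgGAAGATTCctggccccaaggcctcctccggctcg
Hsph1 (chr5:149636351-149636380, minus strand): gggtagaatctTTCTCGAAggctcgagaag
Dnaja1 (chr4:40722318-40722377, plus strand): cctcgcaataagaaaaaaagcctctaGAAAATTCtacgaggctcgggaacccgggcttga
Hspb1 (chr5:135887796-135887855, plus strand): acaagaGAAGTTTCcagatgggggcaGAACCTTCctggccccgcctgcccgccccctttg
Hspe1 (chr1:55088055-55088084, plus strand): tccgTTCTAGAACCTTCCGGAAggccccgc

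Hspd1 and Hspe1 lie head to head on chromosome 1, and their annotated spans share 96 bases. One of the 2 promoter entries of Hspd1 overlaps that of Hspe1 by 285 bases, so the run of units printed for Hspe1 is also that of Hspd1, read from the other strand, and the 2 genes are not independent in the count of matches. Hspa1b and Hspa1a lie in tandem on chromosome 17, with 10120 bases between them. Their promoter sequences differ at 4 of 300 positions, and the stretch printed for them is the same in both.

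Depth ran from 27248934 to 43646521 counts per library, and p-values measure the spread between these libraries, which the labels say came from 3 independent cultures without saying which libraries share one. In CPM, the TMM-scaled count relative to library size, Rmst was at 118 ± 4.85 in the control against 106 ± 9.02 after knockdown (SD, n = 3 each; log2 fold change -0.16 ± 0.097 SE, adjusted p = 1.00 in edgeR). A gene-level count does not measure the circular RNA. The labels name dopamine neurons as the cell type. All 9 markers of dopamine neurons had counts, and their summed level was 457 to 545 CPM over the 6 libraries, beside 3841 to 4825 CPM for 7 markers of neurons in general, 1120 to 1465 CPM for 7 of astrocytes and radial glia and 7.86 to 10.4 CPM for 6 of microglia, of which Aif1, a gene with copies on alternate sequences, was listed at 0 counts. Per length, the most abundant marker of these lists was En1 for dopamine neurons, Tubb3 for neurons, Fabp7 for astrocytes and radial glia, and C1qa for microglia. The libraries thus held other cell types beside dopamine neurons. In bulk RNA, a change in the cells present and a change in RNA per cell cannot be told apart.

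Per length, the constitutive Hsp70 gene stood far above the stress-induced ones. The mean FPKM over 6 libraries was 736 for Hspa8, number 51 from the top of the 42408 FPKM entries, with a range from 541 to 1001. Hsp90aa1, which encodes the inducible form of cytosolic Hsp90, followed at 123 FPKM, from 109 to 151. Hspd1 had a mean of 36.9 FPKM, Dnaja1 of 33.1, Hspe1 of 32.7 and Hsph1 of 24.7, and the ranges of these 4 neighbours overlapped from each one to the next. Dnajb1 had 8.79 FPKM, Hspa1a 8.37 and Hspb1, the small heat shock protein gene, 1.90. Hspa1b lay between the last 2 at 5.35 FPKM, and both Hspa1 values are sums over the entries of the gene. Over the libraries, Hspa8 did not overlap with Hsp90aa1, Hsp90aa1 not with Hspd1, Hsph1 not with Dnajb1, and Hspa1b not with Hspb1. Dnajb1 and Hspa1a, and Hspa1a and Hspa1b, did overlap.

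**Figure D1:**
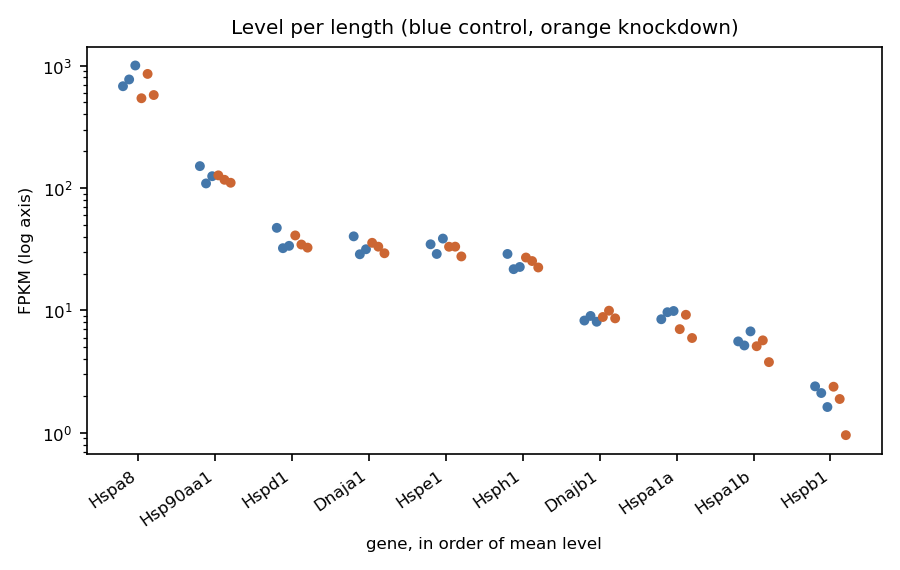
FPKM of each of the 10 genes (log axis) in the 3 control libraries (blue) and the 3 knockdown libraries (orange), genes in order of their mean, with Hspa1a and Hspa1b summed over their entries. Hspa8 lies above all the others in every library, at 541 to 1001 FPKM, and Hspb1 below all the others, at 0.958 to 2.40 FPKM.

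None of the chaperone genes differed between knockdown and control past the threshold. Of the 8 members tested, 0 passed an adjusted p of 0.05 in edgeR's quasi-likelihood test, where 0 of all 17439 genes did (0%). At an unadjusted p under 0.05 there were also 0 of 8 members, against 1.1% of all genes. The 3 control and 3 knockdown libraries did not overlap in CPM in 0 of 8 members, against 5.2% of all genes, of which 2.28% were wholly higher and 2.92% wholly lower in the knockdown. The fold change was positive in 3 members and negative in 5. Its log2 median was -0.017 in the members and -0.00603 over all genes tested. Apart from Hspb1, the 95% intervals of the fold change lay between 0.732 and 1.25, the lower bound being that of Hspa8 and the upper that of Dnaja1.

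**Figure D2:**
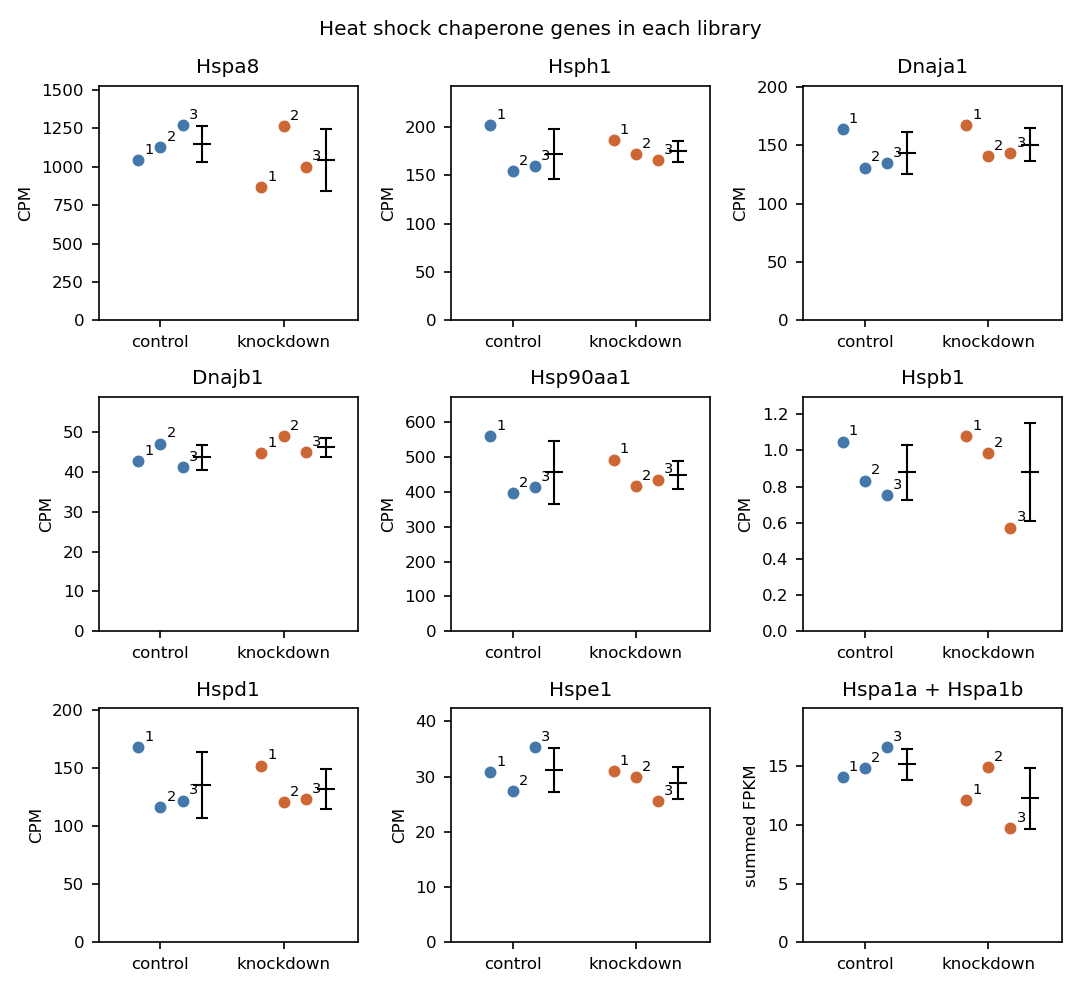
CPM of the 8 tested members and summed FPKM of Hspa1a and Hspa1b in each library (points, numbered by replicate), with mean and SD of the group (black bars, n = 3). The control and knockdown points overlap in every panel, FPKM being plotted as deposited.

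Hspa8, whose protein also strips clathrin from vesicles and takes part in selective autophagy, lies at chr9:40801276-40805202. Its CPM in the control libraries 1 to 3 was 1040, 1130 and 1271, and in those of the knockdown 868, 1264 and 1001. The lowest libraries were both knockdown, but knockdown replicate 2 lay beside the highest control library. The log2 fold change was -0.14 ± 0.14 (SE), with a 95% interval from -0.45 to 0.18 and an adjusted p of 1.00 in edgeR. In FPKM the control libraries of the same gene gave 678, 770 and 1001 against 541, 854 and 574 for the knockdown, a log2 fold change of -0.33 ± 0.27 with limma. The ratio of FPKM to CPM thus moved between libraries. After centring each library on its median gene, it spanned 0.41 log2 units for Hspa8, more than in 88.5% of 14399 genes of at least 1 CPM. Around its 6-library mean it was -0.022, 0.050 and 0.252 in the control libraries 1 to 3 against -0.088, -0.037 and -0.155 after knockdown. The ratio was thus lower in every knockdown library than in any control library. The share of all genes in which this ratio separates the groups was not computed. Of the windows of 150 bases in the longest coding Hspa8 transcript (GENCODE M21), 55.4% are also in a transcript of another gene, most often Gm15459, so its reads may be shared in either unit. Whether these shared windows bear on the ratio was not tested.

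Hsph1 (chr5:149616843-149636498), the Hsp110 exchange factor, had 202, 154 and 160 CPM in the control libraries 1 to 3 against 187, 172 and 165 CPM after knockdown. All 3 knockdown libraries lay within the range of the control, and the log2 fold change was 0.023 ± 0.12 (SE). None of its 150-base windows was found in another gene.

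Both J protein genes were slightly above the control in the mean. Dnaja1, a general J protein gene of the cytosol (chr4:40722468-40734965), had 164, 131 and 135 CPM in the control libraries against 167, 141 and 144 CPM after knockdown. Dnajb1, which encodes an inducible partner of Hsp70 (chr8:83608175-83612653), had 42.6, 47.0 and 41.1 CPM against 44.6, 48.9 and 44.9 CPM. The groups overlapped in both genes. The log2 fold changes were 0.074 ± 0.12 (SE) for Dnaja1 and 0.082 ± 0.10 for Dnajb1 (adjusted p = 1.00 for each in edgeR). In log2 FPKM with limma, Dnaja1 had the opposite sign, at -0.026 ± 0.16.

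Hsp90aa1 (chr12:110691036-110696395) had 559, 395 and 413 CPM in the control libraries 1 to 3 against 492, 417 and 435 CPM after knockdown. The knockdown libraries again lay inside the control range. The log2 fold change was -0.026 ± 0.14 (SE), and without control replicate 1, the highest library, it was 0.15. Of its 150-base windows 36.2% are also in another gene, most often Gm12346.

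Hspb1 (chr5:135887919-135889563), whose small heat shock protein also binds actin filaments, had few counts. They were 43, 33 and 21 in the control libraries against 47, 34 and 24 after knockdown, or 1.05, 0.834 and 0.755 CPM against 1.08, 0.986 and 0.573 CPM. The knockdown libraries held both the highest and the lowest value in CPM. The log2 fold change was -0.00811 ± 0.35 (SE), with a 95% interval from -0.79 to 0.77, or a fold change from 0.58 to 1.71. In log2 FPKM with limma it was -0.29 ± 0.32, and the highest FPKM, 2.399, was in control replicate 1. Of its 150-base windows 36.6% are also in Hsp25-ps1.

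The mitochondrial chaperonin genes, which share a promoter region, were highest in different libraries. Hspd1 (chr1:55077833-55088243) had 168, 117 and 122 CPM in the control libraries against 152, 121 and 123 CPM after knockdown, with a log2 fold change of -0.039 ± 0.15 (SE). Hspe1 (chr1:55088148-55091317) had 30.8, 27.3 and 35.4 CPM against 31.0, 29.9 and 25.5 CPM, with a log2 fold change of -0.11 ± 0.13. Hspd1 was highest in the libraries numbered 1, whereas Hspe1 was highest in control replicate 3 and lowest in knockdown replicate 3. Their Pearson correlation over the 6 libraries was 0.25, and so few values do not show whether the genes share a pattern. They lay furthest apart in control replicate 3, where Hspd1 was at -0.12 and Hspe1 at 0.24 log2 units from their 6-library means. The ratio of Hspe1 to Hspd1 in FPKM was 0.926 ± 0.208 in the control and 0.872 ± 0.0793 in the knockdown (SD, n = 3 each).

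Hspa1a and Hspa1b could be seen only in the FPKM tables. Each gene has 4 entries there, 1 on chromosome 17 and 3 on alternate sequences, and all 8 entries were at 0 in the counts of every library. The zeros did not go with absence of signal: of 570 genes with such copies and a mean FPKM of at least 1, 36.8% had 0 counts in all 6 libraries, against 1.11% of 12074 genes with no copy. Within the GENCODE M21 transcripts, 39.7% of the 150-base windows of Hspa1a and 40.5% of those of Hspa1b are also in another gene, most often in each other, and the alternate copies come on top of that. The split of FPKM between the 2 genes and their copies is therefore uncertain, and their sum over all 8 entries was compared.

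The summed FPKM of Hspa1a and Hspa1b was 14.1, 14.8 and 16.6 in the control libraries 1 to 3 against 12.1, 14.9 and 9.74 after knockdown. The lowest libraries were knockdown replicates 3 and 1, but knockdown replicate 2 lay within the control range. The means were 15.2 ± 1.32 and 12.3 ± 2.59 FPKM (SD, n = 3 each), a difference of -0.33 on the log2 scale (exact permutation test, two-sided p = 0.3, where 0.1 is the smallest that 3 against 3 can give). Without knockdown replicate 3 the difference was -0.17, so much of it rests on that library. With FPKM scaled by the median ratio over genes, an alternative added after seeing the data, knockdown replicate 2 (13.97) lay just under control replicate 1 (14.1). The groups then no longer overlapped, and the difference was -0.31 (exact permutation test, two-sided p = 0.1, the smallest possible). With 3 libraries per group that p only restates that the groups separated. The share of all genes that separate on this scale was not computed, and in TMM-scaled CPM it was 5.2%. The chromosome entry of Hspa1a alone had 4.42, 5.26 and 5.50 FPKM in the control libraries against 3.09, 4.74 and 2.81 FPKM after knockdown, with a log2 fold change of -0.53 ± 0.20 (SE) on log2(FPKM + 0.1). Its unadjusted p in limma was 0.0356, in a fit where 4.5% of 14688 genes had an unadjusted p under 0.05. Its adjusted p was 1.00, and 0 genes (0%) passed the adjusted threshold. The chromosome entry of Hspa1b had -0.13 ± 0.15. Relative to Hspa8, the sum of the inducible pair was 1.89% ± 0.209 in the control and 1.90% ± 0.304 in the knockdown (SD, n = 3 each, FPKM). Hspa8 itself was lowest in FPKM in knockdown replicates 1 and 3, so the ratio does not show the pair unchanged. Bag6, Fkbp5 and Pfdn6, chaperone genes with alternate copies and few or no counts, were also lowest in FPKM there. In knockdown replicates 1 and 3 they had 16.5 and 17.3, 6.39 and 6.63, and 11.9 and 8.78 FPKM. Hspa1l, Hspa4l and Hsf5, which also have copies, were not lowest in both. These further genes were named after their values were seen.

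The 5 genes outside the members whose log2 CPM over the 6 libraries was most like the log2 sum of Hspa1a and Hspa1b, among 14501 genes of at least 1 CPM, were H2ac11 (Pearson r = 0.992), Cfap77 (0.988), Camk1 (0.984), Cpt2 (0.983) and Lgmn (0.978). All of these values rest on the same 6 libraries and are given as a description. Among the members, Hspa8 had r = 0.717 and Hspe1 had r = 0.704 with the sum, and Hsp90aa1 had -0.216.

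Across the libraries the members fell into different patterns, and the largest shared one set the libraries numbered 1 of both groups above the others. In Hsp90aa1, Hspd1, Dnaja1, Hsph1 and Hspb1, or 5 of the 8 tested members, both libraries numbered 1 lay above all of the other 4, against 10.1% of all genes tested. The reverse, both libraries numbered 1 below the other 4, held for 0 of 8 members and for 10.3% of all genes. This pattern was chosen after the values were seen, and is given with no test. The same 5 genes showed it in CPM by library totals, with DESeq2 size factors and in FPKM. Pearson correlations over the 6 libraries were 0.986 between Hsp90aa1 and Hspd1, 0.962 between Hsp90aa1 and Hsph1, and 0.935 between Dnaja1 and Hsph1, whereas Hspa8 had -0.754 with Dnaja1. These correlations share the same 6 libraries and their depth. The deviation of Hspd1 from its 6-library mean was 0.34 log2 units in control replicate 1 and 0.20 in knockdown replicate 1, and between -0.18 and -0.11 in the rest. The libraries numbered 1 were also the 2 deepest, at 41982557 and 43646521 counts, and held the highest share of the ribosomal RNA gene Rn28s1, at 4.02% and 4.49% of counts against 1.01% to 3.17% in the others. The part of depth and of ribosomal RNA in this pattern was not tested.

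**Figure D3:**
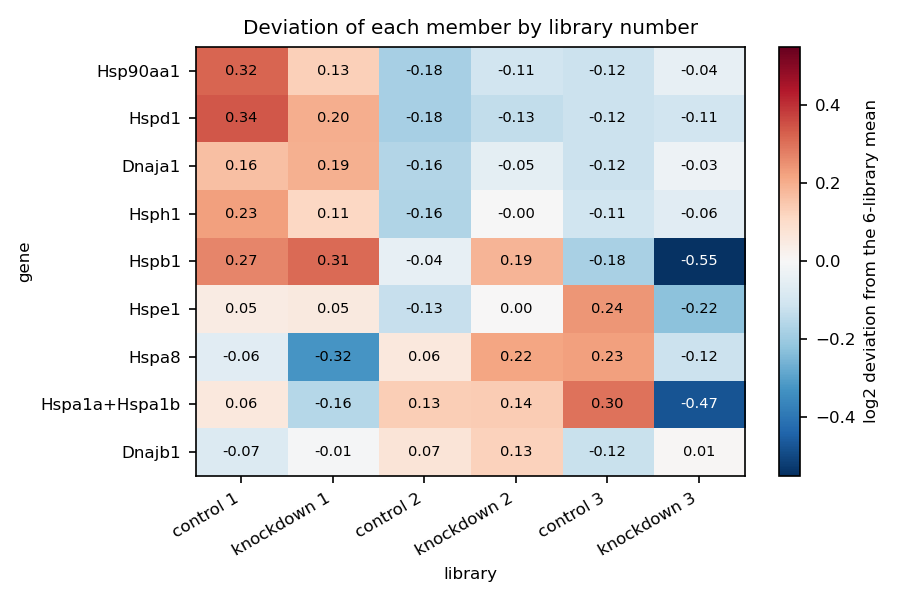
Deviation of each gene from its own 6-library mean in log2 units (log2 CPM, or log2 of the summed FPKM of Hspa1a and Hspa1b), with the libraries ordered by replicate number. Hsp90aa1, Hspd1, Dnaja1, Hsph1 and Hspb1 are above their mean in both libraries numbered 1, while Hspa8 is at -0.32 in knockdown replicate 1.

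Among 82 other genes of the chaperone network, in lists of heat shock factors, Hsp70 and Hsp90 proteins, co-chaperones and chaperonins, 69 were tested and 0 passed an adjusted p of 0.05 in edgeR. The log2 fold change was positive in 34 and negative in 35, its median was -0.00823, and it ran from -0.32 to 0.18. None had an unadjusted p under 0.05. Of the 13 that were not tested, 6 have copies on alternate sequences, among them Bag6, at 0 counts but 25.9 FPKM, and Fkbp5, at 3 counts in all but 9.39 FPKM, both chosen after their values were seen. Both libraries numbered 1 were highest in 29% of the 69 genes, among them Chordc1, Ppid and St13, which encode co-chaperones of Hsp90 or Hsp70 and were chosen here after their values were seen.

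The heat shock factors had a median log2 fold change of -0.024 over 3 tested of 6. Hsf1, the main regulator of the heat shock response, had 26.2, 25.6 and 26.2 CPM in the control libraries against 27.3, 22.3 and 26.6 CPM after knockdown, a log2 fold change of -0.034 ± 0.11 (SE). Hsbp1, which encodes a protein that binds heat shock factor 1, had -0.024 ± 0.092. The amount of Hsf1 RNA does not measure the activity of its protein.

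In the list of other Hsp70 and Hsp110 genes (6 tested of 8, median 0.013), Hspa4, a further Hsp110 gene, had 0.14 ± 0.10 (SE). In the list of Hsp90 and its co-chaperones (11 of 12, median 0.00356), the constitutive gene Hsp90ab1 had 1363 ± 157 CPM in the control libraries against 1338 ± 100.5 CPM after knockdown (SD, n = 3 each), a log2 fold change of -0.027 ± 0.12 (SE). The ratio of Hsp90aa1 to Hsp90ab1 in FPKM was 0.417 ± 0.0445 in the control and 0.390 ± 0.0403 in the knockdown. Stip1, the adaptor between Hsp70 and Hsp90, had the smallest p of that list, with -0.19 ± 0.12. Its CPM was 157, 135 and 129 in the control libraries against 121, 141 and 108 after knockdown, and the groups overlapped.

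In the list of other cytosolic J proteins (13 of 13, median -0.00823), Dnajc5, which encodes the cysteine string protein of synaptic vesicles, had 0.094 ± 0.10 (SE). Dnajc8, a J protein linked to splicing, had the lowest value of these chaperone lists at -0.32 ± 0.15, with an unadjusted p of 0.065 and an adjusted p of 1.00 in edgeR. Its CPM was 59.0, 38.3 and 42.1 in the control libraries against 38.5, 38.9 and 34.5 after knockdown, and control replicate 1 stood apart from the other 5 libraries. Among exchange factors and partners of Hsp70 (8 of 9, median -0.012), the ubiquitin ligase gene Stub1 had -0.00977 ± 0.10 and Bag2 had -0.15 ± 0.14. Of the other small heat shock protein genes 3 of 8 were tested, with a median of 0.075, and Cryab, which encodes alpha-B crystallin, had 5.08 ± 0.386 CPM in the control libraries against 5.08 ± 0.683 CPM after knockdown (SD, n = 3 each), while Hspb8 had 0.12 ± 0.18 (SE).

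In mitochondria, the Hsp70 gene Hspa9 had 199 ± 12.8 CPM in the control libraries against 199.6 ± 5.82 CPM after knockdown (SD, n = 3 each), a log2 fold change of 0.00179 ± 0.092 (SE). The list of mitochondrial chaperones and proteases had a median of -0.018 over 12 of 12 genes. The groups did not overlap in 2 of its genes, against 5.2% of all genes tested. Those 2 were the only such genes among the 69 tested in all chaperone lists other than the members. The protease gene Yme1l1 had 122, 120.3 and 131 CPM in the control libraries against 112, 115 and 112 CPM after knockdown, with -0.14 ± 0.088. Trap1, the mitochondrial Hsp90 gene, which was chosen after its values were seen, had 56.1, 58.4 and 61.6 CPM against 51.2, 55.3 and 55.7 CPM, with -0.12 ± 0.097. Neither passed the test (adjusted p = 1.00 for each in edgeR). Subunits of the cytosolic chaperonin TRiC and of prefoldin had a median of -0.015 over 13 of 14 genes, with the prefoldin gene Pfdn5 at -0.085 ± 0.12 and Pfdn1 at -0.20 ± 0.13.

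**Figure D4:**
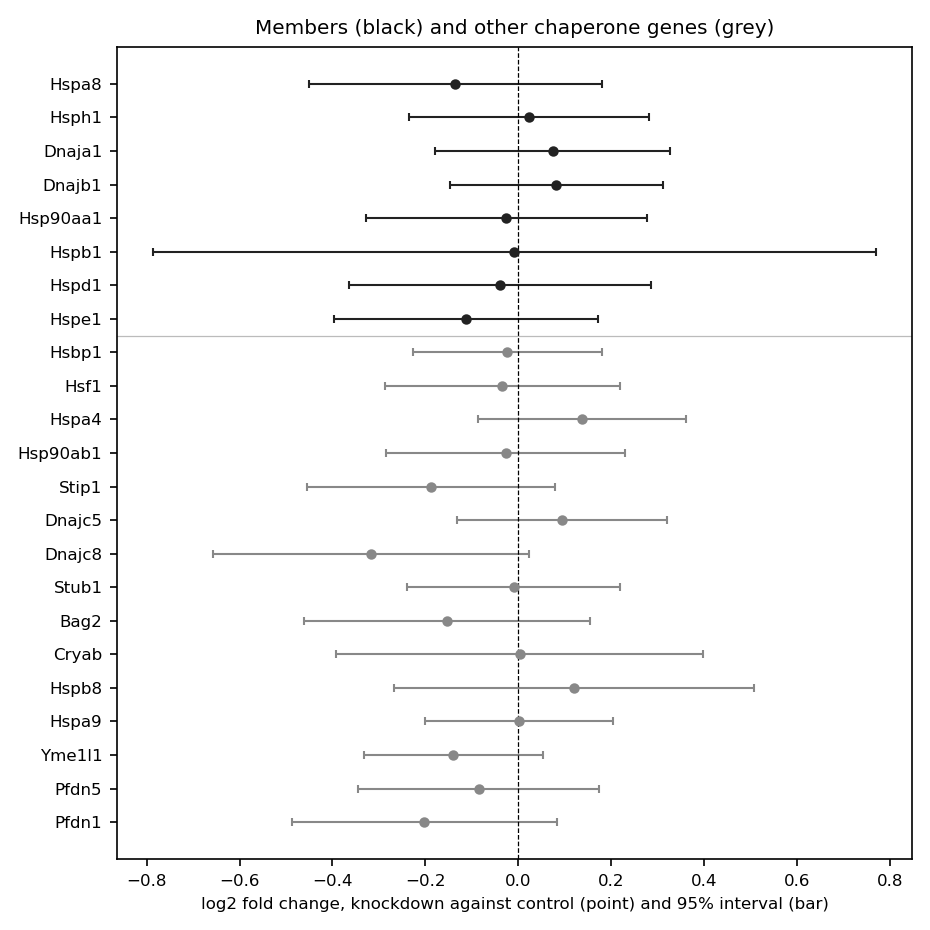
Log2 fold change of knockdown against control (points) with its 95% interval (bars) for the 8 tested members (black) and for other chaperone genes named by rule (grey). Every interval spans 0, and Hspb1 has the widest, from -0.79 to 0.77.

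Markers of some other cell types lay lower or higher in the knockdown without passing the test. The 6 markers of dividing cells were all below the control, with a summed level of 186 to 293 CPM in the control and 183 to 206 CPM in the knockdown, and the 7 of the oligodendrocyte lineage were all below, at 287 to 449 CPM and 281 to 358 CPM. The most abundant of each per length, Top2a and Olig1, had log2 fold changes of -0.27 ± 0.14 and -0.16 ± 0.18 (SE). Over all genes tested, 8390 had positive and 9049 had negative log2 fold changes. Over all marker lists, 5 genes had an unadjusted p under 0.05 in edgeR, against 1.1% of all genes tested. They were 2 of 6 tested markers of dividing cells and 1 of 7 of the oligodendrocyte lineage. Microglia and meningeal fibroblasts had 1 of 4 each, and the other marker lists 0. Bub1b (log2 fold change -0.35 ± 0.13 SE), Mcm5 (-0.34 ± 0.14) and the microglial Tmem119 (-0.87 ± 0.39) had groups that did not overlap, as had 5.2% of all genes tested. Sox10 (-0.45 ± 0.16) and the fibroblast gene Col1a1 (0.35 ± 0.15) were the others. All were named after their values were seen, and each had an adjusted p of 1.00. In the other direction, all 4 tested markers of meningeal fibroblasts had positive log2 fold changes (median 0.24), as had the 3 tested of 5 red blood cell markers (median 0.42). Hba-a2, the red blood cell marker highest in FPKM, had too few counts to be tested and was chosen here after its values were seen. Its mean FPKM was lower after knockdown, at 43.1 ± 17.0 against 46.6 ± 3.53 in the control (SD, n = 3 each). The summed level of meningeal markers was 71.5 to 74.7 CPM in the control libraries and 65.4 to 96.3 CPM after knockdown, and that of red blood cell markers was 9.03 to 18.8 CPM and 12.9 to 27.4 CPM. The summed level of 6 endothelial markers was 16.9 to 20.8 CPM in the control libraries and 17.1 to 20.98 CPM after knockdown. Kdr made up most of that sum, at 13.8 to 17.2 CPM, and Cldn5, a gene with a copy on an alternate sequence, was listed at 0 counts. The sum of 6 pericyte and smooth muscle markers was 109.8 to 169.6 CPM in the control libraries and 108 to 155 CPM after knockdown. The part of these cell types in the chaperone values was not tested. Among the marker sums, that of microglia was highest in both libraries numbered 1, at 10.4 and 9.63 CPM against 7.86 to 8.36 CPM in the others. Of the 4 tested microglia markers only 1 was itself highest in both, C1qa, at 4.68 and 3.84 CPM against 2.77 to 3.34 CPM. Hsp90aa1 and Hspd1 were also highest in both libraries numbered 1. The part of microglia in that pattern was not tested.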

How the data were processed

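The authors deposited counts per gene, unnormalized, in 1 table per library. The authors' genome build was GRCm38 (mm10) per the submitters' processing notes, which also name bcl2fastq 2.20, DESeq2 and Cufflinks 2.2.1. The deposited FPKM values carry the columns that Cufflinks writes, per the file headers. Not given in the sources used here are the aligner, the counter and whether counting used strand.

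Counts were filtered with filterByExpr, scaled by TMM and tested with edgeR 4.0.16 (R 4.3.3, quasi-likelihood, group alone), with p adjusted by Benjamini-Hochberg over all genes and 95% intervals. Hspa1a and Hspa1b, planned as summed CPM, were at 0 in the counts, so log2 of their summed FPKM was compared with an exact permutation test and each entry with limma 3.58.1 on log2(FPKM + 0.1) at a mean FPKM of at least 0.5, a scale that understates changes of low genes. The fits were tested on simulated data. Positions, names and promoters are from RefSeq (GRCm38.p6), and transcripts from GENCODE M21 on the same build.

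Named genes were the 10 members, Rmst, Hsf1, the most abundant gene and the gene with the smallest p of each chaperone list, the most abundant gene of marker lists, and the 5 genes most like Hspa1a plus Hspa1b. Genes outside this rule are marked as chosen after their values were seen. The members and lists were chosen with earlier results of these data known.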

Additional observations from a re-analysis of the deposited data

How the results depend on the processing

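The count of genes called and the fold changes of the 8 members in the counts were recomputed with library totals, upper quartiles or DESeq2 size factors as the scaling, without a filter or at 1 CPM in 3 libraries, with DESeq2 or limma voom, with a block for the replicate number, without each library, from log2 FPKM by limma, and the count at an adjusted p under 0.1. Hspb1 gave no value at 1 CPM in 3 libraries. The entries of Hspa1a and Hspa1b were recomputed within the FPKM fits alone, and the fold changes of other chaperone and marker genes, the ratios and the correlations were not recomputed. The count of genes called was 0 in all of these except with no filter on low counts, where edgeR called 11 of 28463 (5 higher, 6 lower), and with DESeq2, which called 1. None of those genes is in a list used here. The number of genes with an unadjusted p under 0.05 was 191 in edgeR, 175 in DESeq2 and 192 in limma voom. No member crossed the threshold in any of 153 member values under an alternative, and 136 kept their sign.

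Dnaja1 turned to -0.026 in each of the 3 fits on FPKM, and Hspb1 to 0.00043 without the filter. Leaving out 1 library gave ranges from -0.036 to 0.16 for Hsph1, -0.00857 to 0.19 for Dnaja1, -0.19 to 0.24 for Hspb1, -0.10 to 0.15 for Hsp90aa1, -0.15 to 0.15 for Hspd1 and -0.21 to 0.025 for the chromosome entry of Hspa1b. The other members kept their sign: Hspa8 lay between -0.30 and -0.019, Dnajb1 between 0.038 and 0.15, and Hspe1 between -0.19 and -0.00255. The chromosome entry of Hspa1a lay between -0.75 and -0.39, with a lowest adjusted p of 0.235 without knockdown replicate 2, and the sum of Hspa1a and Hspa1b between -0.48 and -0.17.

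With the replicate block 0 genes were called, 258 had an unadjusted p under 0.05, and the difference of the Hspa1a and Hspa1b sum was -0.33 (exact sign-flip test, p = 0.5). With so few libraries that sign-flip test cannot reach 0.05, so its p does not show that there was no difference. Same-numbered libraries correlated at 0.318, 0.350 and 0.0502 in their deviations from the group means over 14501 genes, and control replicate 3 correlated better with knockdown replicate 2 (0.0997), so the numbers were not taken to pair the samples. Over the 8 members alone the same correlations were 0.821, 0.615 and 0.300. Added after seeing the data, the sum over the chromosome entries alone gave -0.42, and FPKM scaled by the median ratio gave -0.31 (exact permutation p = 0.2 and 0.1). The planned scalings of the summed CPM of Hspa1a and Hspa1b were not run, since their counts are 0.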
